A study of Mus musculus with 10 samples.

Results

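Interleukin-19, interleukin-20 and interleukin-24 form a small group of related cytokines, and 8 genes of this group and its receptors were followed in the mouse esophagus: the cytokine genes Il19, Il20 and Il24, the receptor chain genes Il20ra, Il20rb and Il22ra1, and the chains Il10rb and Il10ra of the related IL-22 and IL-10 receptors. They were picked by gene name and are 8 of the 54446 genes in the deposited table. The levels of these libraries were known when the 8 were picked, so their levels and differences are given as a description, with no test. RNA came from whole esophagus of wild-type (WT) C57BL/6 mice, with 5 libraries from a model of eosinophilic esophagitis (EoE) driven by oxazolone, a hapten (OXA; libraries C1 and D1 to D4), and 5 libraries from mice given vehicle (A1 to A5). Libraries were made by CEL-Seq, a method that reads the 3′ ends of polyadenylated RNA. The labels used here give neither the age and sex of the mice, nor the OXA dose, route and schedule, nor whether each library came from a mouse of its own. Any p-value therefore measures only the spread between these libraries. The letter A occurs only in vehicle and C and D only in OXA; what they stand for is not stated, and if they mark a batch, batch and treatment cannot be told apart.

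As background, these cytokines belong to the IL-10 family and are made by squamous epithelium, myeloid cells and some T cells. They act mostly on epithelial cells, through pairs of receptor chains that switch on the kinases JAK1 and TYK2 and the transcription factor STAT3. IL-20RA with IL-20RB forms the type I receptor, which binds all of IL-19, IL-20 and IL-24, and IL-22RA1 with IL-20RB forms the type II receptor, which binds IL-20 and IL-24. IL-22RA1 also pairs with IL-10RB to bind IL-22, and IL-10RA, found mainly on leukocytes, pairs with IL-10RB to bind IL-10. In skin these signals are known for thickening of the epithelium, induction of antimicrobial proteins and delayed cornification.

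Library totals were 3675479 to 8364227 reads in OXA and 5094159 to 12108822 in vehicle. Values are normalized counts, that is, gene counts divided by 1 size factor per library, and a count of 0 still allows 3 reads, which equals 3.50 normalized counts on average in OXA and 2.82 in vehicle (counting error only). The basal keratin gene Krt5, a marker of squamous epithelium, stood at 11366 to 21538 in OXA and 13143 to 19058 in vehicle, and the summed thyroid markers did not exceed 8.62 in any library. Library D1 stood apart within OXA, with the highest summed muscle markers (155405, against 41317 to 120707 in the other OXA libraries and 94253 to 121476 in vehicle) and the lowest summed suprabasal markers (197152, against 272093 to 513364 in the other OXA libraries). The muscle sums of C1 (62225), D2 (59196) and D4 (41317) lay below every vehicle library, and that of D3 (120707) lay within the vehicle range. The part of this makeup in the differences below was not tested.

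The cytokine genes lie side by side on chromosome 1 (GRCm38), all on the minus strand. Il19 (ENSMUSG00000016524.12) spans 130932356 to 130940115, Il20 (ENSMUSG00000026416.12) 130906685 to 130911451 and Il24 (ENSMUSG00000026420.16) 130881774 to 130887454, so 20.9 kb separate Il19 and Il20 and 19.2 kb separate Il20 and Il24. The sequences around the RefSeq starts of Il19 and Il20 are shown (250 bases before and 50 after, GRCm38.p6, minus strand). They were chosen because, of these neighbours, Il19 was counted in 5 of the 5 OXA libraries and Il20 in 1. The RefSeq start of Il20 lies inside the bounds given above, which end at 130911451. Capitals mark matches to TTCNNNGAA, the spacing many STAT proteins bind, or to the same TTC and GAA arms set 1 base further apart, the spacing preferred by STAT6. Both were searched on both strands, as was the AP-1 motif TGANTCA.
Il19, chr1:130940066-130940365: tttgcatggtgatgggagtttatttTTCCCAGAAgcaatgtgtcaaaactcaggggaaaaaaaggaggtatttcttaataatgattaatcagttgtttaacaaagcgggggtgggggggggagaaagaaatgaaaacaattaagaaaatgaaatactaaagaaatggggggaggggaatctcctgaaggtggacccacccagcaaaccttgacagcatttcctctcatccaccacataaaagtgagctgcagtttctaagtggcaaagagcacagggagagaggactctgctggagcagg
Il20, chr1:130911247-130911546: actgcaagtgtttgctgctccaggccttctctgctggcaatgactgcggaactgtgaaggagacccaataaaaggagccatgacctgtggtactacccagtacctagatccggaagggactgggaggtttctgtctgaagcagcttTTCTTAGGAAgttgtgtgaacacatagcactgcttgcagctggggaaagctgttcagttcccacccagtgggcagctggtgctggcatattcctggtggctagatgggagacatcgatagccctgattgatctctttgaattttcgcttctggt
Il19 held 1 match, TTCCCAGAA, and Il20 held 1, TTCTTAGGAA. The Il20 match lies before the RefSeq start but within the gene as bounded above. Neither held the AP-1 motif. Of 32851 promoter windows of 300 bases, 8.3% held TTCNNNGAA, 6.95% the wider STAT6 form and 7.81% TGANTCA. Most windows thus lacked each motif, but many held it, and nothing is read from a single match. Windows were found for 5 of the 8 genes; of the other receptor genes with one, the window of Il20ra held TTCAAGTGAA and TGAGTCA, that of Il22ra1 held TGAATCA and that of Il20rb held no match. The window of Il20rb (100486424 to 100486723) lies wholly within the bounds given for that gene below, so the starts differ there too. No window was given for Il24, Il10rb and Il10ra.

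Il19 was the cytokine gene with the clearest difference. It had 136.64 normalized counts in C1, 71.79 in D1, 106.82 in D2, 108.22 in D3 and 134.09 in D4, against 0 in each of A1 to A5. These OXA values rest on 59 to 179 reads per library. Il19 was thus counted in every OXA library, within a 1.90-fold range, and in no vehicle library. The mean was 112 ± 26.2 in OXA (SD, n = 5), at least 39.5-fold higher than the mean vehicle floor of 3 reads per library. Counting error alone would give a coefficient of variation of 10.2% among OXA libraries, and 23.5% was observed.

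Il24, a cytokine gene first described in mouse as an IL-4-induced transcript of helper T cells, was split between the groups in the same way but rested on far fewer reads. It had 5.34 normalized counts in C1, 12.79 in D1, 5.43 in D2, 5.75 in D3 and 31.93 in D4, and 0 in each of A1 to A5. All OXA libraries were above 0, but these values rest on 3 (D2) to 20 (D4) reads and D4 stood above the rest. The mean of 12.2 ± 11.4 in OXA (SD, n = 5) was at least 4.34-fold higher than the mean vehicle floor, a bound that rests on D4: without D4 the mean was 7.33 and the bound 2.60-fold. Il20, which lies between them, had 4.79 normalized counts (5 reads) in D3 and 0 in the other OXA libraries, and 0 in all vehicle libraries. A level of Il20 was therefore not detectable in 9 of the 10 libraries at this depth, where 3 reads are allowed per library.

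The on and off pattern of Il19 and Il24 was counted over the whole table, where genes with a read in vehicle cannot show it. Of 26612 genes with a read in some library, 22 (0.0827%) had a read in each OXA library and none in any vehicle library. By mean level in OXA, Il19 was rank 1 and Il24 rank 8 among these 22. Since both were picked with their levels known, nothing is read from this share or from their ranks. Rank 2 was Mcpt2, a mast cell protease gene (71.4 ± 34.1 in OXA), and rank 3 the keratin gene Krt90 (47.2 ± 24.2). Of 5 other mast cell markers tested, 1 rose and 4 did not pass. The summed mast cell markers overlapped, at 96.7 to 324 in OXA and 81.8 to 146 in vehicle.

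Among the chains of the IL-20 receptors, Il20rb was the one with ample reads, and it was lower in OXA. Il20rb (ENSMUSG00000044244.18, chromosome 9, 100457419 to 100486788) encodes the chain shared by the type I and type II receptors. It had 105.34 normalized counts in C1, 75.35 in D1, 190.1 in D2, 131.21 in D3 and 87.8 in D4, against 379.04 in A1, 326.23 in A2, 418.01 in A3, 327.19 in A4 and 432.12 in A5. The highest OXA library, D2, lay well under the lowest vehicle library, A2. Means were 118 ± 45.5 in OXA and 377 ± 49.5 in vehicle (SD, n = 5 each), a log2 difference of -1.73 ± 0.22 (SE) on the log2(value + 1) scale. OXA thus had 0.313 times the vehicle mean.

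**Figure D1:**
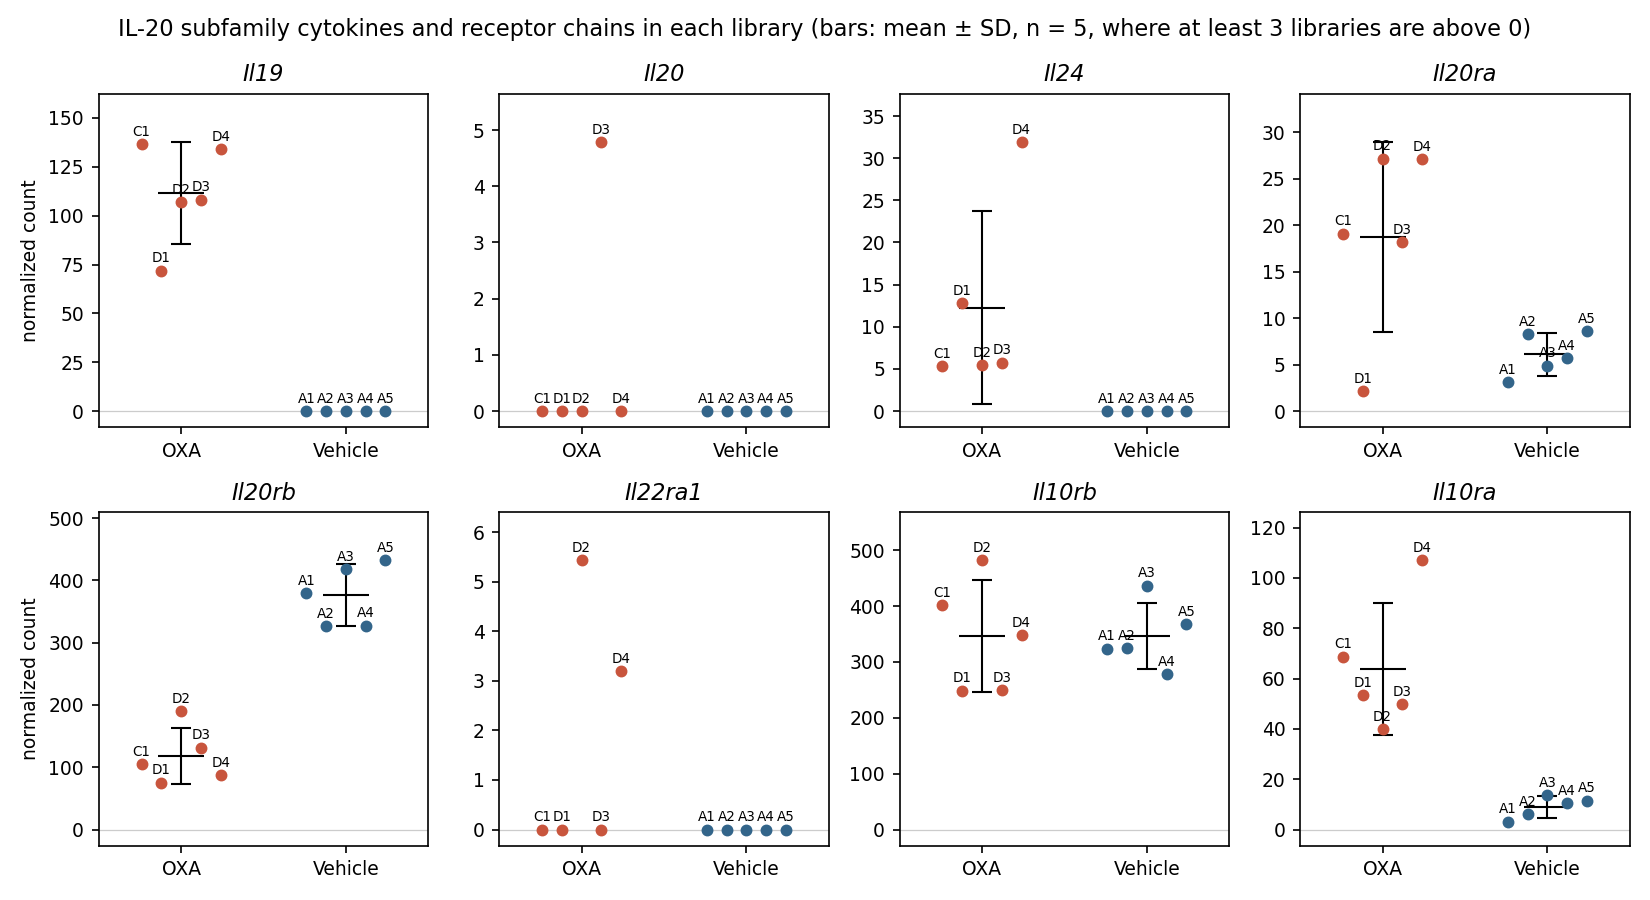
Normalized counts (vertical axes, 1 scale per gene) of the 8 genes in each library, OXA left and vehicle right, with points named by library and bars for the mean ± SD where at least 3 libraries of a group were above 0. Il19 sits at 71.79 to 136.64 in OXA and at 0 in vehicle, Il20rb lies lower in all 5 OXA libraries, and Il10rb overlaps between the groups.

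Il20ra (ENSMUSG00000020007.4, chromosome 10, 19712570 to 19760353), the partner chain that completes the type I receptor, was counted at low levels in both groups. It had 19.08 normalized counts in C1, 2.13 in D1, 27.16 in D2, 18.2 in D3 and 27.14 in D4, against 3.08 in A1, 8.25 in A2, 4.87 in A3, 5.71 in A4 and 8.59 in A5. In OXA 4 of 5 libraries were above every vehicle library, and D1 was below every one of them. The log2 difference was 1.21 ± 0.57 (SE), and 1.80 without D1, which rested on 3 reads for this gene and held the most muscle transcript. The part of D1's tissue makeup in this value was not tested.

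The ratio of Il20rb to Il20ra within a library was 3.24 to 35.4 in OXA and 39.5 to 123 in vehicle, without overlap. The highest OXA ratio was that of D1, where Il20ra rests on 3 reads, beside 3 (A1) to 11 (A2 and A4) reads in vehicle. The lack of overlap thus rests on few reads. The ratio is a comparison of 3′ end counts and not of protein. Il22ra1 (ENSMUSG00000037157.8, chromosome 4, 135728172 to 135752440), the chain for the type II and IL-22 receptors, had 5.43 normalized counts (3 reads) in D2, 3.19 (2 reads) in D4 and 0 in the other 8 libraries, so no level of it could be set in either group. IL-22 itself could not be seen either: Il22 and Iltifb, the second mouse IL-22 gene, were at 0 in all 10 libraries.

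The IL-10 receptor chains parted from each other. Il10ra (ENSMUSG00000032089.16, chromosome 9, 45253537 to 45269149), the ligand-binding chain, had 68.7 normalized counts in C1, 53.31 in D1, 39.83 in D2, 49.8 in D3 and 106.96 in D4, against 3.08 in A1, 6 in A2, 13.64 in A3, 10.39 in A4 and 11.45 in A5. The groups did not overlap. Means were 63.7 ± 26.3 in OXA and 8.91 ± 4.29 in vehicle (SD, n = 5 each), 7.15-fold higher in OXA, with a log2 difference of 2.76 ± 0.38 (SE). The Il10ra values rest on 22 (D2) to 90 (C1) reads per library in OXA, but on only 3 (A1) to 20 (A4) in vehicle. Il10rb (ENSMUSG00000022969.13, chromosome 16, 91406164 to 91426134), the chain shared with the IL-22 and interferon lambda receptors, was 346 ± 100 in OXA and 346 ± 59.6 in vehicle.

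For Il10rb the single libraries were 401.51 in C1, 248.78 in D1, 481.58 in D2, 249 in D3 and 348 in D4, and 323.57 in A1, 323.98 in A2, 436.52 in A3, 278.37 in A4 and 367.74 in A5. The groups overlapped, with the lowest and the highest library both in OXA. The log2 difference of -0.03 ± 0.20 (SE) took either sign among the alternatives, from -0.20 to 0.10. The ratio of Il10rb to Il10ra was 3.25 to 12.1 in OXA and 26.8 to 105 in vehicle.

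In all, 4 of the 8 genes had groups that did not overlap, Il19, Il24 and Il10ra above and Il20rb below, where 22.4% of the 14712 genes tested across the table had none (12.0% above and 10.4% below). The filter on low values, a mean normalized count of 5 or more, was passed by 6 of the 8 genes, and Il20 and Il22ra1 did not. Il19, at a mean of 55.8, and Il24, at a mean of 6.12, passed it through their OXA values alone. Since the 8 were picked with these levels known, nothing is read from the comparison with the whole table.

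Il10ra and Il20rb were set beside markers of the cells known to carry them, since fewer cells of a type and less RNA per cell cannot be told apart in whole tissue. All 6 leukocyte markers rose (limma, adjusted p under 0.05) and their summed level was 2658 to 4757 in OXA and 609 to 991 in vehicle. Beside this and the marker counts that follow, 15.7% of all tested genes were higher and 14.2% lower. The leukocyte gene Ptprc, at 315 to 693 in OXA and 35.8 to 115 in vehicle, gave Il10ra to Ptprc ratios of 0.0843 to 0.158 in OXA and 0.0268 to 0.320 in vehicle. Relative to Ptprc, Il10ra therefore overlapped between the groups. Of the suprabasal markers 5 of 7 fell and 1 rose, and their sum was 197152 to 513364 in OXA and 580425 to 991468 in vehicle, a sum made up mostly of Krt4 and Krt13, whereas the basal marker sum overlapped (22274 to 46764 in OXA and 28688 to 39820 in vehicle). That basal sum joins opposite moves, since 2 of 7 basal markers rose, Krt14 (11260 ± 5139 in OXA and 2357 ± 462 in vehicle) among them, and 2 fell, Krt15 (3295 ± 1277 in OXA and 12538 ± 1754 in vehicle) and Col17a1 (348 ± 121 in OXA and 1304 ± 194 in vehicle).

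Per 1000 suprabasal marker counts, Il20rb stood at 0.314 to 0.423 in OXA and 0.436 to 0.601 in vehicle. These ranges do not overlap, but they lie closer together than those of Il20rb itself. This gap depends on the markers in the sum. Beside Il20rb (log2 difference -1.73), Krt78 (-2.38) and Tgm3 (-2.28) fell more. Krt4 (-1.53), Scel (-1.52) and Sbsn (-1.44) fell less, Krt13 (-0.83) did not pass, and Mal (1.95) rose. As a percent of Krt5 the ranges were 0.408 to 1.41 in OXA and 2.27 to 2.89 in vehicle, but this gap depends on the basal marker chosen: Krt15 (log2 difference -2.03) and Col17a1 (-1.97) fell while Krt5 did not pass the test (0.12). Within OXA the library with the least Il20rb, D1, also had the lowest suprabasal sum, and the library with the most, D2, the highest. How far the shift in epithelial layers enters the Il20rb difference was not tested.

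**Figure D2:**
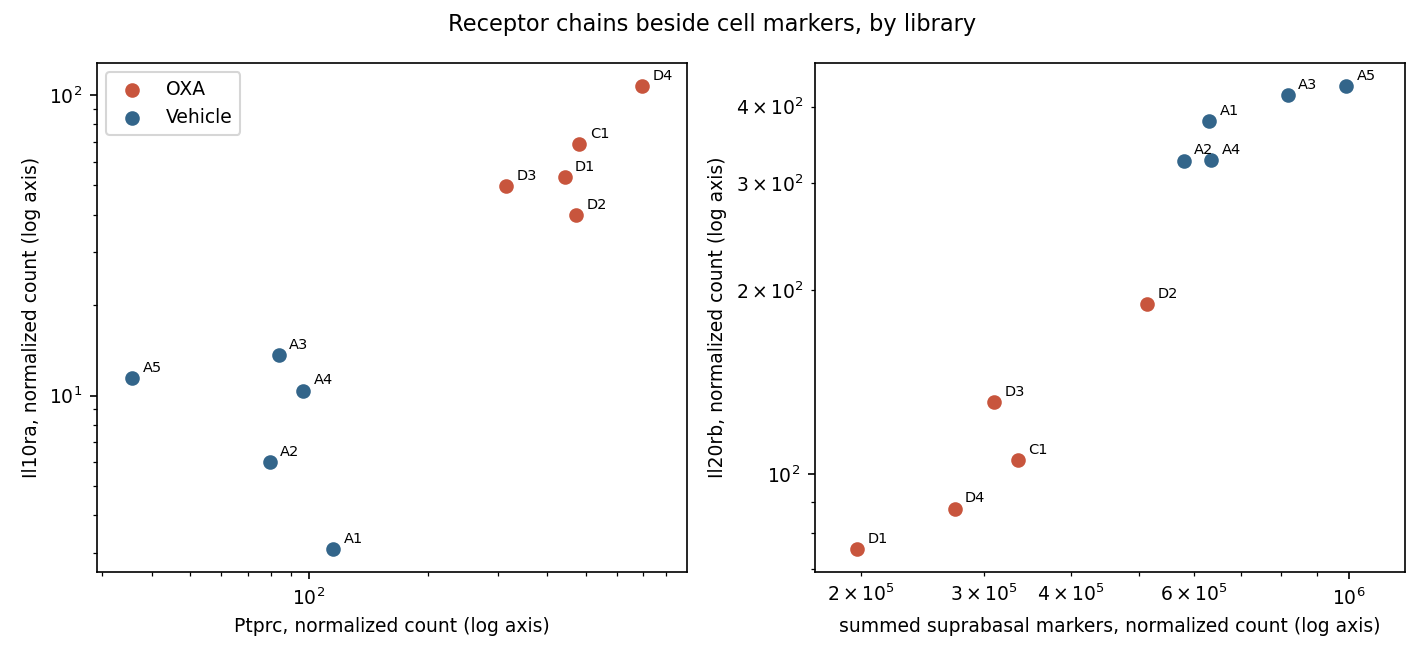
Il10ra against Ptprc (left) and Il20rb against the summed suprabasal markers (right), normalized counts on log axes, 1 point per library in OXA and vehicle. Il10ra is higher where Ptprc is higher between the groups, and Il20rb is lowest in D1 and highest in A5, as is the suprabasal sum.

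Genes with the most similar profile over the 10 libraries were found by the root mean square (RMS) difference of log2(value + 1) profiles. Each gene was centred on its own mean over both groups. The measure therefore takes in the difference between OXA and vehicle, and genes with a difference of like size rank near. It does not show that genes vary together within a group. The median tested gene lies far from any gene with a large difference, and for Il19 and Il24 that size depends on the pseudocount. Nearest to Il19 was the injury keratin gene Krt17 (RMS 0.66, where the median tested gene had 3.43), then Mcpt2 (0.68), the cornified envelope genes Sprr2i (0.70) and Sprr2g (0.84) and the kallikrein protease gene Klk6 (0.88). For Il24 they were the granzyme gene Gzmk (0.39), the stefin gene Stfa2l1 (0.42) and the deiodinase gene Dio2 (0.47).

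Nearest to Il20rb by this measure were Eps8l2 (RMS 0.13), the growth factor receptor gene Fgfr3 (0.14) and the fatty acid elongase gene Elovl6 (0.17). The median tested gene had 1.02. Fgfr3 stood at 95.0 ± 29.9 in OXA and 276 ± 29.3 in vehicle (SD, n = 5 each). Among those near Il10ra were the myeloid lectin gene Clec12a (0.31) and the kinetochore gene Spc24 (0.37). Il20ra was nearest to Slc4a11 (0.44), Fam83b (0.45) and Npl (0.51), and Il10rb to the adaptor gene Tirap (0.11), Eaf1 (0.12) and Slbp (0.12).

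Below the receptors, several STAT and SOCS genes rose, while the kinase genes Jak1, Jak2 and Tyk2 did not pass the test. Of 16 genes of this signalling list, all tested, 6 rose and 1 fell, where 15.7% of all tested genes were higher and 14.2% lower. The median log2 difference was 0.33, and -0.01 over all tested genes. Stat3, the main transcription factor of these receptors, had 1186 to 1997 normalized counts in OXA and 727 to 836 in vehicle, a log2 difference of 0.93 ± 0.14 (limma, adjusted p = 2.84e-04). All 5 OXA libraries exceeded all vehicle libraries. The leukocyte markers rose beside these genes (6 of 6, median log2 difference 2.45), as did 7 of 8 T cell markers, and their part in the signalling list was not tested.

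The feedback inhibitor genes Socs1 and Socs3 rose as well, and so did Junb, a STAT3-inducible component of AP-1. Socs3 stood at 235 ± 55.0 in OXA and 133 ± 21.1 in vehicle (SD, n = 5 each; log2 difference 0.80 ± 0.18, limma adjusted p = 0.00498). Junb stood at 2171 ± 482 in OXA and 674 ± 152 in vehicle (1.68 ± 0.19, limma adjusted p = 2.81e-05), and Socs1 differed by 2.59 ± 0.18 (limma adjusted p = 5.18e-07). Stat5b, named after its values were seen, was the 1 gene that fell (-0.64 ± 0.17, limma adjusted p = 0.0123). It did not pass after scaling to library totals or without the 3 libraries of fewest reads. Jak1 (1264 ± 129 in OXA and 1077 ± 69.2 in vehicle, limma adjusted p = 0.164) and Tyk2 (47.6 ± 9.31 in OXA and 38.1 ± 8.28 in vehicle, limma adjusted p = 0.319) did not pass.

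Genes known to be induced by IL-19, IL-20, IL-22 or IL-24 in keratinocytes or other epithelia mostly rose. Of 30 listed genes 25 were tested, 17 rose and 4 fell, beside 15.7% higher and 14.2% lower over all tested genes, so that the share that fell lies near that of the whole table. The median log2 difference was 1.68, and -0.01 over all tested genes. Krt16, an injury keratin gene, had 7584 to 19338 normalized counts in OXA and 2.25 to 98.73 in vehicle (log2 difference 8.95 ± 0.71, limma adjusted p = 1.31e-06), and Krt17 had 626 to 3175 in OXA and 9.87 to 25.76 in vehicle (6.27 ± 0.38, limma adjusted p = 1.40e-07). Krt6a (8.53 ± 0.35) and Krt6b (8.74 ± 0.36) rose alike, though reads can be shared between this pair.

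The 4 genes of that list that fell, named after their values were seen, were antimicrobial or glycan genes. Other antimicrobial genes of the list, also named after their values were seen, rose (limma, adjusted p under 0.05). Among them were S100a8 (log2 difference 5.09 ± 0.43), S100a9 (2.82 ± 0.32), Defb3 (3.14 ± 0.74) and Lcn2 (1.48 ± 0.37). The defensin gene Defb4 stood at 1222 ± 628 in OXA and 5834 ± 1344 in vehicle (-2.44 ± 0.37, limma adjusted p = 2.46e-04), whereas its relative Defb14 rose (1.68 ± 0.26, limma adjusted p = 3.58e-04). The cathelicidin gene Camp stood at 9.88 ± 3.87 in OXA and 24.4 ± 2.80 in vehicle (-1.29 ± 0.32, limma adjusted p = 0.00771). The fucosyltransferase gene Fut2 (-1.06 ± 0.25) and S100a7a (-0.90 ± 0.27) were the others. The list thus moved in both directions, and its genes are also known to respond to other cytokines, a share that was not tested.

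Genes known to be lowered by IL-20 or IL-22 in human keratinocytes fell almost throughout. Of 14 listed genes 11 were tested, 10 fell and 0 rose in limma as in edgeR and DESeq2, with a median log2 difference of -2.44. Over all tested genes 14.2% were lower and 15.7% higher in limma. The cornified envelope gene Kprp had 32.7 to 337 normalized counts in OXA and 1446 to 2208 in vehicle (-4.12 ± 0.50, limma adjusted p = 4.42e-05), and the calcium-binding gene Calm4 had 99.5 to 869 in OXA and 3299 to 5862 in vehicle (-3.73 ± 0.44, limma adjusted p = 3.69e-05). Flg, the gene of filaggrin (-4.71 ± 0.53), and Calml3 (-2.11 ± 0.28) fell too. The protease gene Klk7 did not pass (750 ± 423 in OXA and 492 ± 131 in vehicle, limma adjusted p = 0.429). Krt1, under the filter, was at 0 in all OXA libraries and at 4.86 ± 1.81 in vehicle (SD, n = 5). The suprabasal markers given above fell beside this list, and their part in it was not tested.

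**Figure D3:**
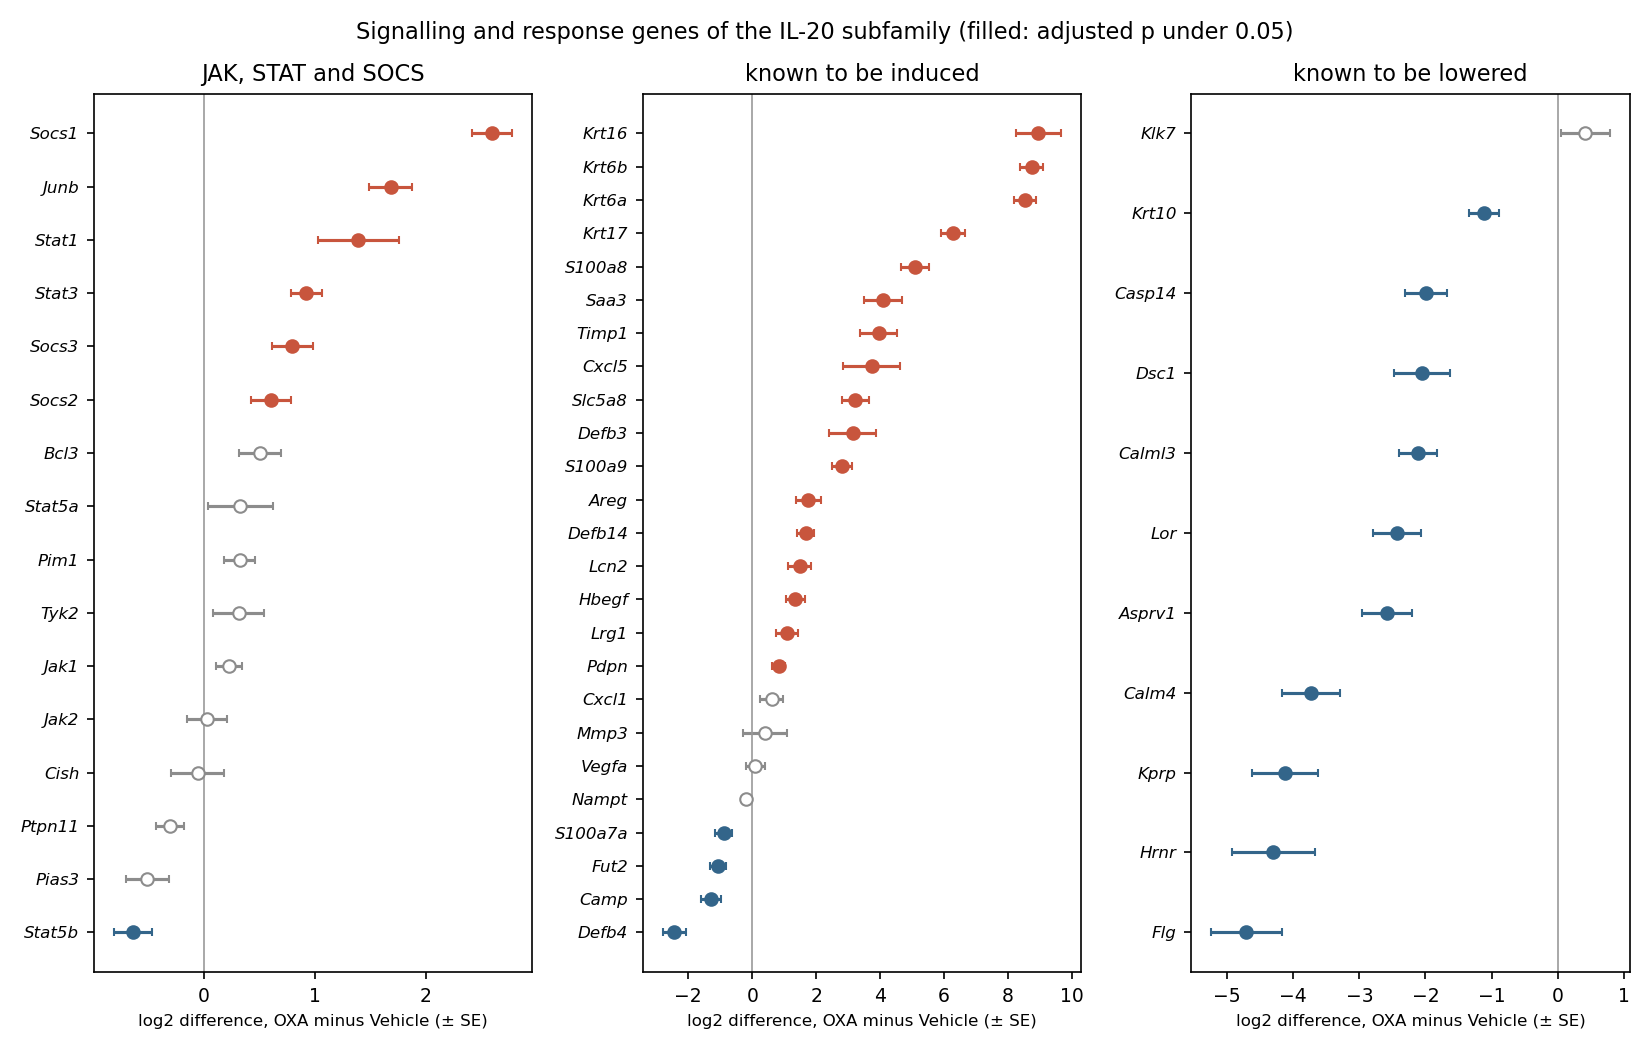
Log2 differences, OXA minus vehicle, with standard errors (horizontal axes) for the tested signalling genes, the genes known to be induced and the genes known to be lowered by these cytokines. Filled points passed the test; Krt16 (8.95) and Flg (-4.71) lie at the ends, and Defb4 (-2.44) lies against most of the induced list.

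Cytokines known to induce Il19, Il20 or Il24 were mostly under the filter. Of 17 listed genes 7 were tested, 2 rose (Il1b and Il33) and 2 fell (Il1a and Il1f8, which encodes IL-36 beta). Over all tested genes 15.7% were higher and 14.2% lower, and with only 7 genes tested nothing is read from these counts. Il1b had 8.62 to 77.48 normalized counts in OXA and 2.08 to 13.64 in vehicle (log2 difference 2.03 ± 0.57, limma adjusted p = 0.0159). Il33 (818 ± 208 in OXA and 556 ± 95.5 in vehicle, log2 difference 0.53 ± 0.18) and Il1a (12.8 ± 8.08 in OXA and 52.0 ± 29.2 in vehicle, -2.33 ± 0.71) passed at limma adjusted p of 0.0420 and 0.0235. Il1b lost the call without the 3 libraries of fewest reads (limma adjusted p = 0.0688), Il1a lost it without A3 (limma adjusted p = 0.0651), and Il33 lost it in 9 of 21 alternatives. Il1f8 stood at 64.3 ± 46.2 in OXA and 208 ± 53.4 in vehicle (SD, n = 5 each; -1.94 ± 0.40, limma adjusted p = 0.00225).

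The remaining 10 inducers and the family genes Il10 and Il22ra2 lay under the filter and above 0 somewhere, and were tested singly by an exact two-sided permutation test, whose smallest possible p is 0.00794 with 5 libraries a group. Over these 12 genes a lone gene cannot reach an adjusted p below 0.0952, so the adjusted values say nothing of the absence of a difference. Osm, an inducer made by myeloid cells, was the 1 gene with an unadjusted p under 0.05, with 6.33 ± 4.91 in OXA and 1.13 ± 1.29 in vehicle (exact p = 0.0159, adjusted p = 0.190). In limma it was called higher with the filter lowered to a mean of 1 (adjusted p = 0.0393) and not called without a filter (adjusted p = 0.0616). Il13 stood at 1.65 ± 1.70 in OXA and 0 in vehicle (exact p = 0.167, adjusted p = 0.400) and Il10 at 3.30 ± 3.72 in OXA and 0.950 ± 1.01 in vehicle (exact p = 0.294, adjusted p = 0.587).

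The genes around the cytokine cluster and the receptor genes did not all move one way. Within 250 kb of the 8 genes, 46 other genes were tested, of which 10 rose and 13 fell, with a median log2 difference of 0.02 (15.7% of all tested genes were higher and 14.2% lower). On chromosome 1, Fcmr, the gene of an IgM receptor of B cells, ends 683 bases from Il24, in the opposite orientation. It had 6.70 to 21.73 normalized counts in OXA (14.1 ± 6.74) and 0 in each vehicle library. Fcmr was 1 of the 22 genes counted above, and passed the filter through its OXA values alone. Its limma adjusted p of 1.60e-04 carries that limit, and its log2 difference went from 1.86 to 6.90 among the alternatives. Summed B cell markers were 314 to 560 in OXA and 15.1 to 106 in vehicle, and their part in the Fcmr difference was not tested. On the other side of Il19, Mapkapk2 did not pass (477 ± 79.5 in OXA and 430 ± 21.7 in vehicle, limma adjusted p = 0.476) and the predicted gene Gm37084, named after its values were seen, rose (14.3 ± 7.09 in OXA and 2.68 ± 1.62 in vehicle, limma adjusted p = 0.0103). Gm37084 lies within the bounds of Mapkapk2, so their reads may not be separable. Yod1, a deubiquitinase gene beyond Fcmr, fell (-1.40 ± 0.23, limma adjusted p = 5.00e-04).

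**Figure D4:**
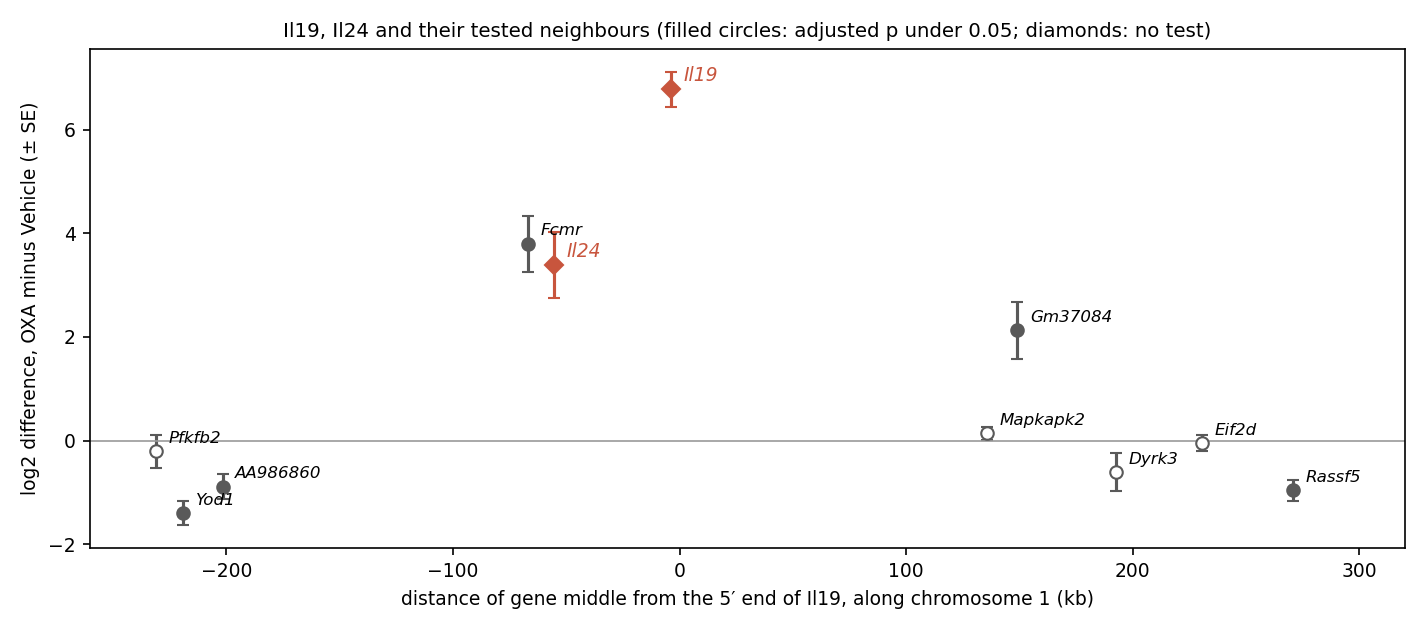
Log2 difference, OXA minus vehicle, with its standard error (vertical axis) of Il19, Il24 and their tested neighbours on chromosome 1, against the distance of each gene's middle from the 5′ end of Il19 in kb. Il19, Il24 and Fcmr stand high, while Mapkapk2 (0.14) lies near 0 and Yod1 (-1.40) below it; Il20 was under the filter and is not drawn.

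Several receptor genes of the IL-10 and interferon families lie near the receptor genes followed here. Ifnlr1, which pairs with Il10rb in the interferon lambda receptor and lies 19691 bases from Il22ra1, fell. It had 16.79, 7.82, 21.73, 21.07 and 27.14 normalized counts in C1 and D1 to D4, against 36.98, 33.75, 76, 48.82 and 61.53 in A1 to A5 (log2 difference -1.43 ± 0.34, limma adjusted p = 0.00580). The groups did not overlap. Near Il10rb and Il20ra, interferon receptor genes named after their values were seen went the other way, with Ifngr2 at 497 ± 61.5 in OXA and 316 ± 26.9 in vehicle (0.65 ± 0.13, limma adjusted p = 0.00160) and Ifngr1 at 469 ± 131 in OXA and 275 ± 44.9 in vehicle (0.74 ± 0.18, limma adjusted p = 0.00638). Near Il10rb, Ifnar1 rose as well (44.4 ± 25.5 in OXA and 20.3 ± 5.55 in vehicle, limma adjusted p = 0.0365) and Ifnar2 did not pass (40.4 ± 7.77 in OXA and 27.0 ± 1.21 in vehicle, limma adjusted p = 0.0658). Map3k5, a stress kinase gene near Il20ra, rose (1.43 ± 0.17, limma adjusted p = 3.27e-05).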

How the data were processed

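RNA of 10 whole esophagus libraries, 5 OXA and 5 vehicle, was analysed from 1 deposited table. The deposited signal per gene is, by its values, a count scaled by a single size factor for each library and kept to 2 decimals: dividing by the worth of 1 read gave whole reads for 100% of values within 0.006. Per the submitters' processing notes, which give no roles, DESeq2 1.18.1, HTSeq 0.11.2, TopHat2 2.1.0, cutadapt 1.10, Bowtie2 2.2.6, FastQC 0.11.5 and Trim Galore were used, with the GRCm38 build. The table's gene ends lie 300 bases beyond the GENCODE M21 3′ end for all 8 genes and for 19418 of 53229 matched identifiers. Neither the strand setting nor a use of molecular identifiers is stated there; genes overlapping the 8 were all at 0.

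Differences came from limma 3.58.1 with a mean-variance trend on log2(value + 1), which understates changes of low genes, for 14712 genes with a mean of at least 5, with Benjamini-Hochberg adjustment over all of them and a threshold of 0.05. edgeR 4.0.16 and DESeq2 1.42.0 were run on the recovered reads as alternatives (2411 and 2627 genes higher and 1972 and 2249 lower, where limma had 2309 and 2085), beside other pseudocounts, filters, scalings and left-out libraries. The fit was tested on simulated data. The 8 genes, the lists and the list of alternatives were chosen with earlier results of these data known. The rule named, in each list and among neighbours, up to 4 tested genes with the smallest p, and the 3 genes (5 for Il19) most like each of the 8 that passed the filter, leaving out predicted genes and antigen receptor segments; other genes were named after their values were seen, and some genes that the rule names are not reported here. Il36a, Il36b and Il36g are Il1f6, Il1f8 and Il1f9 in the table. Protein sequences were not used here.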

Additional observations from a re-analysis of the deposited data

Results flagged for a closer look

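For the 8 genes and the named genes, 53 groups of 5 libraries were checked. In 6 of them a library's gap to the next was over 0.71 of the group's range. Chance gives such a flag in about 1 of 20 groups of normally distributed values. That rate does not hold for low counts, and a group with reads in 1 library only, as Il20 in OXA, is always flagged. In OXA, Il20 was 4.79 in D3 and 0 elsewhere, Il24 was 31.93 in D4 beside 5.34 to 12.79 in the others, and Socs1 was 409 in D4 beside 288 to 308. In vehicle, Socs1 was 79.98 and Map3k5 67.52 in A4, beside 43.5 to 51.64 and 45.8 to 50.25 in the others, and Krt6a was 474 in A5 beside 94.49 to 178.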

How the results depend on the processing

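Over 21 alternatives (pseudocounts, filters, scalings, edgeR, DESeq2 and left-out libraries), the direction of Il19, Il24, Il20ra, Il20rb and Il10ra held in each alternative that kept the gene. The size for genes at 0 in vehicle is set by the scale: the log2 difference of Il19 was 6.78, but 7.77 with a pseudocount of 0.5, 4.51 with 5, 6.46 with quantile normalization, 9.92 with edgeR and 9.41 with DESeq2, and that of Il24 was 3.39, but 4.30, 1.59, 6.70 and 6.20 with the pseudocounts of 0.5 and 5, edgeR and DESeq2. Il20rb stayed between -1.92 and -1.59, Il10ra between 2.29 and 2.94, and Il20ra between 0.78 and 1.80. Il24 and Il20ra were not fitted at a mean of at least 20. Signalling genes that fell numbered 1, but 0 with CPM scaling and 0 without the 3 libraries of fewest reads, and 1 to 2 leaving out 1 library. Inducing cytokines that rose numbered 2, but 3 at a mean of at least 1 (with Osm), 1 without a filter, 0 without the 3 libraries of fewest reads and 1 to 2 leaving out 1 library, and those that fell 1 to 2; the cause was not tested. Of the 21 genes outside the 8 that the rule named by smallest p, 18 kept direction and call throughout. Il1a, Il1b and Il33 lost the call in some alternatives. The other genes named here were not part of this count, and Stat5b among them lost its call in some alternatives, as given above. Higher genes were 52.5% of calls over the table and 65.4% with CPM scaling, which moved the median of all genes to 0.11. No paired analysis was possible because OXA libraries carry the number 1 under both letters C and D and no label ties them to vehicle libraries. Depth limits Il20, Il22ra1, Il24 and Il20ra, which rest on 20 reads or fewer per library, or on 25 in C1 for Il20ra. It also limits Il10ra in vehicle, which rests on 3 (A1) to 20 (A4) reads per library.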
